A study of Rattus norvegicus with 6 samples.

Results

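The chemokines and their receptors were described in diabetic rats given liraglutide or saline. Genes were chosen by symbol: every gene whose symbol begins with Ccl, Cxcl, Ccr, Cxcr or Ackr and a number or with Cx3c, and Xcl1 and Xcr1, was taken, with 1 probe set per gene (the brightest over the 6 arrays among probe sets that carry a single symbol). This gave 54 of the 18166 genes on the array, namely 34 ligands, 18 receptors and 2 atypical receptors. Among the ligands, 20 were of the CC type and 12 of the CXC type, and the others were Cx3cl1 and Xcl1. All 54 had exactly 1 such probe set. The symbol rule leaves out Pf4 and Ppbp, chemokines under other names, which were not analysed here.

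The study asked how liraglutide, an agonist of the receptor for glucagon-like peptide-1, acts on gene expression in the hearts of diabetic rats. Affymetrix Rat Gene 2.0 ST arrays were run on 3 Hlirag and 3 diabetic samples. Per the study's methods, male Sprague-Dawley rats entered at 5 weeks of age, ate a high-fat diet for 4 weeks and received streptozotocin, a toxin of pancreatic beta cells, at 30 mg/kg. The Hlirag group was then injected with liraglutide at 0.4 mg/kg per day for 12 weeks and the diabetic group with saline, with 6 rats in each group, and the labels give an age of 17 weeks for all 6 samples. Both groups therefore shared the diet and the streptozotocin, and no sample of a rat without diabetes was on the arrays analysed here. No source states that each array held RNA of a separate rat, so the p-values below measure the spread between these samples only.

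The labels disagree on the tissue. The tissue entry reads cardiac muscle, the titles begin with a misspelling of aorta, and the descriptions mention fat tissue of an unrelated experiment. Myh6, the heart's alpha myosin heavy chain, read 7.88 and 9.16 on the log2 scale on replicate 1 of Hlirag and of diabetic, but 3.81 and 4.19 on the other Hlirag arrays and 3.76 and 3.93 on the other diabetic arrays. Those last 4 values lie below the background level of 5.19, which is the 95th percentile of the mean signals of 1185 olfactory receptor genes, a family that is silent in most tissues. The 6 white adipocyte markers averaged between 10.30 and 10.75 on every array. The samples are therefore called by their group only, and not by a tissue.

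Chemokines are small secreted proteins that steer leukocytes along a gradient. They bind receptors that span the membrane and signal through inhibitory G proteins, and most are held in place by heparan sulfate on cell surfaces. Some, such as Cxcl12 and Ccl21, are made constantly by stromal cells and keep leukocytes in their places, whereas others are induced by NF-κB or interferon during inflammation. The atypical receptors bind chemokines without G protein signalling and clear them. In the diabetic heart and vessel wall and in fat, monocytes drawn by Ccl2 through Ccr2 are the best-known example.

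The promoters of Cx3cl1 and Ccl24 are shown since these were the genes at the study's criterion (below), and that of Cxcl10 since it held the most kinds of motif among the genes whose groups did not overlap. Each run gives the 250 bases before the start of the gene in RefSeq's GRCr8 assembly, 5′ to 3′ on the gene's own strand. Cx3cl1 lies on the minus strand (chr19:10242821-10243070), Ccl24 on the plus strand (chr12:26737173-26737422) and Cxcl10 on the plus strand (chr14:15988816-15989065). Capitals mark matches, on either strand, to the NF-κB consensus, to ISRE (the letters GAAA, any 2 bases, and GAAA again, bound by interferon regulatory factors), to GAS (TTCNNNGAA, bound by STAT dimers), to AP-1 (TGANTCA), to CRE (TGACGTCA) or to the TATA box (TATAAA).
Cx3cl1: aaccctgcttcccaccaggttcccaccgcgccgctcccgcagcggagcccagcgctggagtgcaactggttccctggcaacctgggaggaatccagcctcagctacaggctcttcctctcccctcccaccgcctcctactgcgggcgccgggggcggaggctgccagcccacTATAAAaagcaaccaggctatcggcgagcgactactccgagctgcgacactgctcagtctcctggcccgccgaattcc
Ccl24: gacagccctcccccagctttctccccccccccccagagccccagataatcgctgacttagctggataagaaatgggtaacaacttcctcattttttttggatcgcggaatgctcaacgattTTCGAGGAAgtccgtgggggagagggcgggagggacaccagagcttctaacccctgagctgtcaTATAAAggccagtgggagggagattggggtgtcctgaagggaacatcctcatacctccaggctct
Cxcl10: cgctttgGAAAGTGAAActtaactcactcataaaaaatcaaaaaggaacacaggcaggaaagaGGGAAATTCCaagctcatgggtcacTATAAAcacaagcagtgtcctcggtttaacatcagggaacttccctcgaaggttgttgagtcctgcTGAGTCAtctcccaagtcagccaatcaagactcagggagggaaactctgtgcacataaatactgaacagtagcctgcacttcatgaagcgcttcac
Cx3cl1 held only a TATA match and Ccl24 a GAS and a TATA match. Cxcl10, counted from the far end, held an ISRE match, an NF-κB match, a TATA match and an AP-1 match.

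An NF-κB match was found in 5 CXC ligands of chromosome 14 (Cxcl1, Cxcl2, Cxcl6, Cxcl10 and Cxcl11), and AP-1 and TATA matches were found in both Cxcl10 and Cxcl11 as well. The windows from 110 to 61 bases before the start of Cxcl1 (chr14:17479382-17479431, minus strand), Cxcl2 (chr14:17467316-17467365, minus strand), Cxcl6 (chr14:17596478-17596527, minus strand) and Cxcl11 (chr14:15973618-15973667, plus strand) are shown, with that match alone in capitals.
Cxcl1: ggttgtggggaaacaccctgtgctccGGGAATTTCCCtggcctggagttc
Cxcl2: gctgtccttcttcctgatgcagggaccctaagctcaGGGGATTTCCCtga
Cxcl6: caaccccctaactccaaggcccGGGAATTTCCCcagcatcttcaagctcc
Cxcl11: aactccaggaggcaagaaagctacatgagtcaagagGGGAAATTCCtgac
In Cxcl1, Cxcl2 and Cxcl6 the match ran on both strands, shifted by 1 base, so that 11 bases are in capitals. RefSeq promoters were matched for 42 of the 54 genes, and Ccl2, Ccl3, Ccl4, Ccl5, Ccl11, Ccr4, Ccr7, Ccr8, Ccr9, Ccr10, Cxcl3 and Cxcr5 were not analysed here. The NF-κB consensus was found in 8 of the 42 promoters (19.0%: Ccl9, Ccl20, Ccr3, Cxcl1, Cxcl2, Cxcl6, Cxcl10 and Cxcl11) and in 3.52% of 27457 promoters of all genes. The corresponding shares were 28.6% and 13.1% for the TATA box, 16.7% and 6.36% for AP-1, 9.52% and 7.52% for GAS, and 4.76% and 3.29% for ISRE. CRE was in none of the 42 and in 1.7% of all promoters. These are matches of letters and say nothing of which factor was bound in these samples.

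Of the 54 genes, 32 had a mean signal above the background level and 22 (40.7%) below it, against 39.4% below it among all genes. 22 genes were above it on all 6 arrays, 13 were below it on all 6, and 19 lay on both sides. Replicate 3 of Hlirag stood apart from the other arrays: its genes spread less (SD 1.52 against 1.84 to 1.98), and its olfactory receptor genes had a median of 4.51 against 3.13 to 3.50. Against each array's own olfactory level, 6 of the 54 genes were above background on that array, compared with 27 to 35 on the other arrays. Diabetic replicates 1 and 2 stood apart in another way, carrying skeletal muscle transcripts (mean of 6 genes 10.48 and 11.56, against 5.07 to 5.35 on the other 4 arrays) and nerve transcripts (mean of 8 genes 7.57 and 9.88, against 5.04 to 5.35). Values without Hlirag replicate 3, or without diabetic replicates 1 and 2 together, are given where they move by over 1.5 times. This was done for the genes described in full, by rules stated with the processing. For other genes and lists such values are given in part only.

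At the study's criterion, which asks for a fold change over 1.5 and p under 0.05 before adjustment (here from limma), 2 of the 54 genes differed between the groups, both lower in Hlirag: Cx3cl1 and Ccl24. Among all genes 687 met the criterion (3.78%), with 294 higher in Hlirag (1.62%) and 393 lower (2.16%). The share among the chemokine and receptor genes, 3.7%, was thus close to that of all genes. Before adjustment, 3 of the 54 genes had p under 0.05 in limma (752 of all genes, 4.14%), the other being Cxcr2 with a fold change of 1.48. By the methods' test 690 of all genes (3.8%) did so. After adjustment no gene of the array passed 0.05 by either test, and the lowest adjusted p among the 54 genes was 0.780 in limma. Without Hlirag replicate 3, 1 of the 54 genes met the criterion (Ccl11), and 1.93% of all genes did. Without diabetic replicates 1 and 2, 1 met it (Ccr2), as did 286 of all genes.

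The groups did not overlap for 9 of the 54 genes (16.7%), against 11.1% of all genes. Cx3cl1, Ccl24 and Cxcr2 were lower on all 3 Hlirag arrays than on any diabetic array (4.69% of all genes), and Cxcl10, Cxcr3, Ccl19, Ccl26, Cxcr1 and Ccr1l1 were higher (6.42% of all genes). Of these 6, only Cxcl10 and Cxcr3 had a mean above the background level, and Cxcr3 exceeded it on Hlirag replicates 2 and 3 only. With 3 arrays against 3, an exact permutation test of a single gene cannot give a two-sided p below 0.1.

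**Figure D1:**
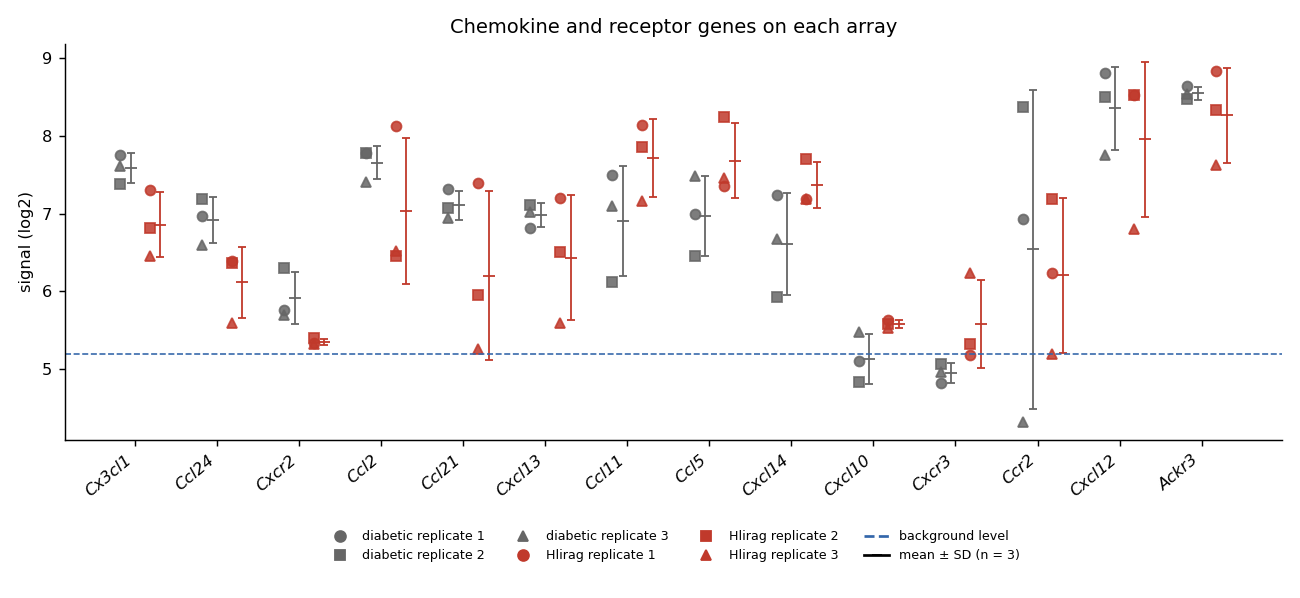
Signal (log2) of 14 chemokine and receptor genes on each of the 6 arrays, with the mean ± SD of each group (n = 3); the dashed line is the background level of 5.19. The groups are apart for Cx3cl1, Ccl24, Cxcr2, Cxcl10 and Cxcr3, and Ccr2 spans 4.05 log2 units over the arrays.

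Cx3cl1 (fractalkine, probe set 17731597) is a membrane-bound chemokine of endothelial cells, neurons and other cells that is shed to attract cells with Cx3cr1. Its signal was 7.30, 6.82 and 6.46 on the Hlirag arrays and 7.76, 7.38 and 7.61 on the diabetic arrays. The diabetic arrays lay close together, and all 3 Hlirag arrays lay below them. The means were 6.86 ± 0.42 and 7.58 ± 0.19 (SD, n = 3 each). Cx3cl1 was 1.65-fold lower in Hlirag (log2 fold change -0.72, SE 0.28, adjusted p = 0.780). It missed the criterion when Hlirag replicate 2 or 3 or diabetic replicate 1 or 3 was left out, and by the methods' test. The log2 fold change was -0.52 without Hlirag replicate 3 and, also short of the criterion, -0.75 without diabetic replicates 1 and 2.

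Cx3cr1, the receptor of fractalkine on monocytes, macrophages and cytotoxic lymphocytes, read 5.86, 6.16 and 5.72 on the Hlirag arrays and 5.76, 6.08 and 5.04 on the diabetic arrays. The groups overlapped and the log2 fold change was 0.29 (SE 0.31), or 0.88 without diabetic replicates 1 and 2. Adam17, which sheds fractalkine from the membrane, had a log2 fold change of -0.29 (SE 0.45), with the lowest of its 6 values on Hlirag replicate 3. Without that array the log2 fold change was 0.25.

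The eotaxins Ccl11, Ccl24 and Ccl26 attract eosinophils through Ccr3. The signal of Ccl24 (eotaxin-2, probe set 17672928), which macrophages make, was 6.39, 6.37 and 5.59 on the Hlirag arrays and 6.97, 7.19 and 6.60 on the diabetic arrays. Replicate 3 was the lowest array of both groups, and the groups did not overlap. Ccl24 was 1.75-fold lower in Hlirag (log2 fold change -0.80, SE 0.30, adjusted p = 0.780). It missed the criterion without Hlirag replicate 3 (log2 fold change -0.54), diabetic replicate 1 (-0.78), diabetic replicate 2 (-0.67) or both (-0.49), with values raised to the background level, and by the methods' test.

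Ccl11 (eotaxin-1), a product of fibroblasts and smooth muscle, had the highest positive log2 fold change of the 54 genes, 0.81 (SE 0.41), and did not meet the criterion. Its signal was 8.14, 7.85 and 7.17 on the Hlirag arrays and 7.50, 6.12 and 7.10 on the diabetic arrays. The groups overlapped through Hlirag replicate 3 and diabetic replicate 1, and the lowest value was on diabetic replicate 2. Ccl11 met the criterion, higher in Hlirag, without Hlirag replicate 3 (log2 fold change 1.09), without diabetic replicate 1 (1.11) and after quantile normalization (0.92). Fibroblast markers, for the whole list of 8 genes, averaged 10.48, 9.84 and 8.24 on the Hlirag arrays and 10.17, 9.15 and 9.96 on the diabetic arrays, so they too were lowest on Hlirag replicate 3 and, among diabetic arrays, on replicate 2. Their part in the result was not tested.

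Ccl26 (eotaxin-3) was below background on all 6 arrays, with 4.34, 4.18 and 4.66 on the Hlirag arrays and 4.11, 3.75 and 3.63 on the diabetic arrays. All 3 Hlirag values were higher, by 0.56 on average (SE 0.24). Once values below background were raised to it, nothing of this difference was left (0.00). Ccr3 itself ranged from 2.30 to 3.23, below background on every array.

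The neutrophil-attracting CXC ligands act through Cxcr2 and, for some, Cxcr1. Cxcr2 read 5.33, 5.40 and 5.32 on the Hlirag arrays and 5.76, 6.30 and 5.70 on the diabetic arrays. The Hlirag arrays were within 0.04 (SD) of each other, just above the background level, and all lay below the diabetic arrays. The difference was 1.48-fold (log2 fold change -0.57, SE 0.24, adjusted p = 0.780), short of the fold the criterion asks. With quantile normalization (-0.64), median centring (-0.71) or without diabetic replicate 3 (-0.68) it met the criterion, and without diabetic replicates 1 and 2 it was -0.35. Cxcr1, which lies beside Cxcr2 on chromosome 9, went the other way at values below background (3.71 to 4.66 over the arrays, log2 fold change 0.49, SE 0.24, and 0.33 without Hlirag replicate 3), and at 0.00 once values were raised to background.

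The ligands of Cxcr2 did not meet the criterion. Cxcl2 read 7.09, 5.92 and 6.28 on the Hlirag arrays and 6.26, 7.77 and 7.24 on the diabetic arrays, with a log2 fold change of -0.66 (SE 0.45). Each group held 1 array far from its others, Hlirag replicate 1 high and diabetic replicate 1 low, and without the latter the log2 fold change was -1.08 and met the criterion. Cxcl1 differed by -0.21 (SE 0.34), or 0.33 without diabetic replicates 1 and 2, and Cxcl3 and Cxcl6 were below background on all 6 arrays. Among 10 neutrophil markers none met the criterion, 7 had a log2 fold change above 0, and the median was 0.11 (-0.04 without Hlirag replicate 3, 0.30 without diabetic replicates 1 and 2). Their mean ran from 4.83 to 5.30 over the Hlirag arrays and from 4.71 to 5.07 over the diabetic arrays, and 5 of the 10 were below background on every array. In bulk samples such as these, fewer cells of a type and less RNA per cell cannot be told apart.

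Ccl2 (monocyte chemoattractant protein-1) and its receptor Ccr2 bring monocytes out of the blood. The signal of Ccl2 was 8.13, 6.46 and 6.52 on the Hlirag arrays and 7.78, 7.78 and 7.41 on the diabetic arrays. Hlirag replicate 1 was the highest of all 6 arrays, and the other Hlirag arrays were about 1 unit below every diabetic array. The log2 fold change was -0.62 (SE 0.45) over all arrays. Without Hlirag replicate 1 it was -1.17 and met the criterion, as did 11.1% of all genes without that array. It was -0.36 without Hlirag replicate 3 and -0.37 without diabetic replicates 1 and 2. Ccl7, another ligand of Ccr2 and the neighbour of Ccl2 on chromosome 10, was also highest on Hlirag replicate 1 (6.06) and at 4.87 and 4.81 on the other Hlirag arrays, against 5.24 to 5.62 on the diabetic arrays (-0.16, SE 0.36, and 0.05 without Hlirag replicate 3 or 0.01 without diabetic replicates 1 and 2). Ccl12, a further ligand known from mouse, was below background on all arrays (3.20 to 3.47).

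Ccr2 varied most of the 32 genes above background. It read 6.23, 7.19 and 5.19 on the Hlirag arrays and 6.93, 8.37 and 4.32 on the diabetic arrays. In both groups replicate 2 was the highest and replicate 3 the lowest, and the values of Hlirag lay inside those of diabetic. The log2 fold change of -0.34 had an SE of 0.97, and it was 0.17 without Hlirag replicate 3. The 2 diabetic arrays with high Ccr2 are those that carried skeletal muscle and nerve transcripts, whose part in the result was not tested. Without them, the remaining diabetic array had the lowest Ccr2 of all, and the log2 fold change turned to 1.88, at the criterion.

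Ccr1 binds Ccl3, Ccl5 and, in mouse, Ccl6 and Ccl9. Ccr1 read 6.16, 5.51 and 4.56 on the Hlirag arrays and 6.22, 6.30 and 5.90 on the diabetic arrays, a log2 fold change of -0.73 (SE 0.40). Ccl3 (macrophage inflammatory protein-1 alpha) read 5.96, 5.38 and 4.66 on the Hlirag arrays and 6.18, 6.54 and 5.68 on the diabetic arrays, with -0.80 (SE 0.38). Both were lowest on Hlirag replicate 3, below background there, and highest on diabetic replicate 2. Without Hlirag replicate 3 the log2 fold changes were -0.30 and -0.46, and that of Ccl3 was -0.34 without diabetic replicates 1 and 2. Ccl6 ranged from 7.06 to 8.99 (-0.44, SE 0.44, but -0.01 without Hlirag replicate 3 and 0.06 without diabetic replicates 1 and 2), and Ccl4 stayed below background on every array. The 15 macrophage markers averaged 7.38, 6.86 and 6.21 on the Hlirag arrays and 7.07, 7.07 and 6.88 on the diabetic arrays, and none met the criterion. Cd68, a lysosomal protein of macrophages, stood at 0.37 (log2 fold change, SE 0.24) and Csf1r, the receptor for macrophage colony-stimulating factor, at -0.58 (SE 0.40). The part of macrophage number in the values of Ccl3 and Ccr1 was not tested.

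Ccl5 (RANTES), made by T cells, NK cells and other cells, had 7.36, 8.24 and 7.46 on the Hlirag arrays and 6.99, 6.45 and 7.48 on the diabetic arrays. The highest Hlirag and the lowest diabetic value were both on replicate 2, and diabetic replicate 3 lay inside the Hlirag range. Its log2 fold change was 0.71 (SE 0.35), and without diabetic replicate 3 it was 0.96 and met the criterion. Without diabetic replicates 1 and 2 it was 0.20. Most markers of T cells and NK cells were low: their mean over 17 genes was between 4.45 and 5.19 on all arrays, and 8 of the 17 were below background on every array. Of the 17, 16 had a log2 fold change above 0, and the median was 0.34 (0.16 without diabetic replicates 1 and 2). Only 5 of the 17 had a mean above background. Among all genes below background 77.6% had a log2 fold change above 0, with a median of 0.22. Cd4 was bright, at 7.49 to 9.55 over the arrays, and was the 1 gene below 0 (-0.64, SE 0.50). Cd3e, part of the T cell receptor complex, read 3.59 to 4.52. Of this list Cd8b (log2 fold change 0.77, SE 0.28) and Klrd1 (0.66, SE 0.25) met the criterion, both higher in Hlirag. Klrd1 was below background on all 6 arrays (3.94 to 5.02), and Cd8b was above it on Hlirag replicates 2 and 3 only (5.79 and 5.66). The value of Cd8b on Hlirag replicate 3 was below that array's own olfactory level of 6.66. The part of T cells and NK cells in the value of Ccl5 was not tested.

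Cxcl9, Cxcl10 and Cxcl11 are induced by interferon-gamma and draw activated T cells through Cxcr3. Cxcl10 read 5.63, 5.58 and 5.52 on the Hlirag arrays and 5.10, 4.83 and 5.47 on the diabetic arrays. The Hlirag arrays were close together and all above background, and diabetic replicate 3 came close to them without overlap. The difference was 0.45 (SE 0.24), 0.29 once values were raised to background, and 0.11 without diabetic replicates 1 and 2. Cxcr3 read 5.18, 5.32 and 6.23 on the Hlirag arrays and 4.81, 5.06 and 4.97 on the diabetic arrays. The diabetic values were all below background. Its log2 fold change of 0.63 (SE 0.31) was 0.30 without Hlirag replicate 3 and 0.39 once values were raised to background.

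Cxcl9, the neighbour of Cxcl10 on chromosome 14, had a signal of 8.03, 7.83 and 6.08 on the Hlirag arrays and 8.05, 7.88 and 6.83 on the diabetic arrays. Replicates 1 and 2 of both groups nearly coincided and replicate 3 was lower in both, with a log2 fold change of -0.27 (SE 0.56). It was 0.35 without Hlirag replicate 3 and 0.48 without diabetic replicates 1 and 2. Cxcl11 was below background on every array. Of 17 other interferon targets measured none met the criterion, with a median log2 fold change of -0.03 (0.15 without Hlirag replicate 3, 0.15 without diabetic replicates 1 and 2). The lowest p values among them were those of Usp18 (0.39, SE 0.24), an inhibitor of interferon signalling, and Rsad2 (0.43, SE 0.32), the antiviral viperin. Cxcl16, a transmembrane ligand that also takes up oxidized lipoprotein, ranged from 6.55 to 8.36 over the Hlirag arrays and from 7.36 to 7.83 over the diabetic arrays (-0.06, SE 0.44). This was 0.42 without Hlirag replicate 3 and -0.33 without diabetic replicates 1 and 2. Its receptor Cxcr6 was below background on 5 arrays and had a log2 fold change of 0.61 (SE 0.28).

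The lymphoid chemokines Ccl19 and Ccl21 guide T cells and dendritic cells through Ccr7. Ccl21, made by lymphatic endothelium, had the lowest log2 fold change of the 54 genes, -0.90, but with an SE of 0.50. It read 7.40, 5.96 and 5.26 on the Hlirag arrays and 7.31, 7.07 and 6.94 on the diabetic arrays. As with Ccl2, Hlirag replicate 1 was the highest of all arrays and the other Hlirag arrays were below every diabetic array. Without Hlirag replicate 1 the log2 fold change was -1.50 and met the criterion, whereas without Hlirag replicate 3 it was -0.43. Lyve1, a marker of lymphatic endothelium and of some macrophages, read -0.90 on the same scale (SE 0.39). Of the 9 lymphatic and lymph node markers 4 had a log2 fold change above 0, and none met the criterion. The median of the 9 was -0.07, and 0.16 without diabetic replicates 1 and 2.

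Ccl19 went the other way, with 5.18, 5.29 and 5.49 on the Hlirag arrays and 5.05, 4.44 and 4.81 on the diabetic arrays. All Hlirag values were higher, but only Hlirag replicates 2 and 3 exceeded the background level. Neither exceeded its own array's olfactory level (5.32 and 6.66). The log2 fold change of 0.56 (SE 0.24) was 0.13 once values were raised to background. Ccr7 was above background on all arrays (5.51, 6.06 and 6.52 in Hlirag, 5.38, 5.32 and 5.61 in diabetic), with a log2 fold change of 0.59 (SE 0.30), or 0.35 without Hlirag replicate 3. Cxcl13, which forms B cell follicles through Cxcr5, read 7.20, 6.51 and 5.60 on the Hlirag arrays and 6.81, 7.11 and 7.02 on the diabetic arrays. Its log2 fold change was -0.55 (SE 0.39) and, without Hlirag replicate 1, -0.93, which met the criterion, but without Hlirag replicate 3 it was -0.13. Cxcr5 had a log2 fold change of 0.19 (SE 0.31), or 0.76 without diabetic replicates 1 and 2. Among the B cell and plasma cell markers Jchain, the joining chain of secreted antibodies, was lower in Hlirag at the criterion (-0.98, SE 0.31), whereas the other 9 measured did not meet it. Of these 10 markers 7 had a log2 fold change above 0, with a median of 0.15 (-0.04 without Hlirag replicate 3), and Pou2af1, a transcriptional coactivator of B cells, was higher on all 3 Hlirag arrays (0.52, SE 0.20).

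Cxcl12 (stromal cell-derived factor-1) signals through Cxcr4 and is scavenged by Ackr3. Cxcl12 read 8.53, 8.53 and 6.80 on the Hlirag arrays and 8.80, 8.50 and 7.75 on the diabetic arrays. Replicate 3 was the lowest of both groups, and the log2 fold change of -0.40 (SE 0.51) was 0.18 without Hlirag replicate 3 and 0.20 without diabetic replicates 1 and 2. Ackr3 was nearly the same on the diabetic arrays (8.64, 8.47 and 8.54) and ran from 8.84 to 7.63 in Hlirag (-0.28, SE 0.32, and 0.04 without Hlirag replicate 3). Ackr2, which clears inflammatory CC chemokines, lay between 5.29 and 5.75 on all arrays (0.24, SE 0.22), the narrowest range of the genes described in full. Cxcr4 read 5.95 to 6.12 over the Hlirag arrays and 5.51 to 6.62 over the diabetic arrays (0.14, SE 0.32, and 0.56 without diabetic replicates 1 and 2). Cxcl14, a chemokine of fibroblasts, epithelia and brown fat, had 7.19, 7.70 and 7.19 on the Hlirag arrays and 7.23, 5.93 and 6.67 on the diabetic arrays. Its log2 fold change was 0.75 (SE 0.36), and it met the criterion after quantile normalization (0.86) and without diabetic replicate 1 (1.06). The 6 brown adipocyte markers averaged 7.30, 8.38 and 8.35 on the Hlirag arrays and 7.66, 6.62 and 6.50 on the diabetic arrays. They and Cxcl14 were both highest on Hlirag replicate 2. The lowest array was diabetic replicate 3 for the markers and diabetic replicate 2 for Cxcl14. Of the 6 markers 3 met the criterion, higher in Hlirag. Ucp1, the uncoupling protein of brown fat, read 10.75, 12.75 and 12.03 on the Hlirag arrays and 10.92, 7.35 and 7.05 on the diabetic arrays, and the groups overlapped through replicate 1. Their part in the value of Cxcl14 was not tested.

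**Figure D2:**
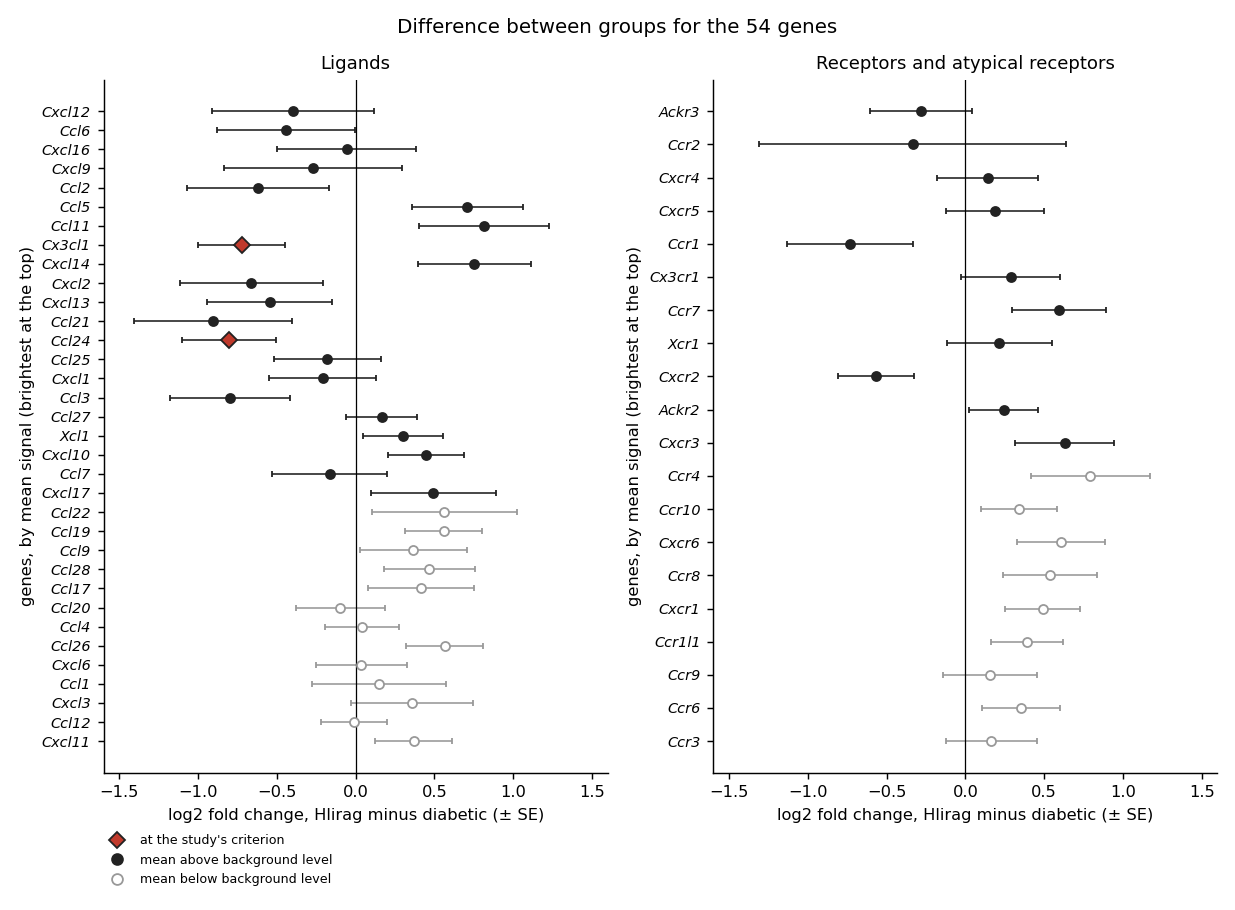
Log2 fold change (Hlirag minus diabetic) ± SE of the 34 ligands (left) and of the 20 receptors and atypical receptors (right), ordered by mean signal with the brightest at the top. Diamonds mark Cx3cl1 and Ccl24, open grey points mark genes below the background level, and most of these lie to the right of 0.

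The remaining chemokines serve mostly T cell subsets, mucosa and skin. Ccr4, the receptor of Ccl17 and Ccl22 on Th2 and regulatory T cells, read 4.66, 5.53 and 6.18 on the Hlirag arrays and 4.50, 4.73 and 4.76 on the diabetic arrays. Its log2 fold change was 0.79 (SE 0.38), 0.43 without Hlirag replicate 3 and 0.44 once values were raised to background. On every diabetic array Ccr4 was below background. Ccl22 read 6.46 on Hlirag replicate 3 and 4.67 to 4.90 on the other 5 arrays, so its log2 fold change of 0.56 (SE 0.46) was -0.01 without that array. Ccl17 was likewise above background only on Hlirag replicate 3 (5.63). The values of Ccl22 and Ccl17 there were below that array's own olfactory level of 6.66. Ccr4, Ccl22 and Ccl17 were all below background in the mean. Ccl25, a T cell attractant of thymus and gut, Ccl27, a chemokine of skin, Xcl1 (lymphotactin) and its receptor Xcr1 on cross-presenting dendritic cells had mean signals above background, with log2 fold changes of -0.18, 0.17, 0.30 and 0.22 and SEs of 0.22 to 0.34. In the same order they were -0.43, 0.10, 0.13 and -0.07 without Hlirag replicate 3. Without diabetic replicates 1 and 2 they were -0.54, 0.02, 0.12 and -0.21. Cxcl17, a mucosal chemokine, was above background on 3 arrays (0.49, SE 0.40). Its log2 fold change was 0.10 without Hlirag replicate 3 and 0.12 without diabetic replicates 1 and 2. Also below background in the mean were Ccl20 and its receptor Ccr6 on Th17 cells, and Ccl1 and its receptor Ccr8. So were Ccr9, the receptor of Ccl25, Ccr10 and its mucosal ligand Ccl28, and Ccl9 and Ccr1l1. These 9 genes had log2 fold changes between -0.10 and 0.54. Ccr1l1, whose groups did not overlap, read 3.73, 3.80 and 4.22 on the Hlirag arrays and 3.58, 3.48 and 3.51 on the diabetic arrays, all below background (0.39, SE 0.23, and 0.24 without Hlirag replicate 3).

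The sign of the difference went with signal level. The 32 genes above background had a median log2 fold change of -0.17 (14 of them above 0), and all genes above background had -0.16 (32.4% above 0). The 22 genes below background had a median of 0.37 (20 of them above 0), and all genes below background had 0.22 (77.6% above 0). The olfactory receptor genes had a median of 0.37 as well, with 1031 of 1185 above 0. Hlirag replicate 3 was the lowest of its group in 18 of the 32 bright genes and the highest in 19 of the 22 dim ones, and among all genes in 68.5% and 76.4%. Without it the medians were 0.10 for the bright and 0.20 for the dim genes, against 0.01 and 0.04 for all genes of those kinds. The bright genes thus changed sign as a group, and the dim ones kept theirs. Without diabetic replicates 1 and 2 the medians of the bright and the dim genes were 0.08 and 0.11, against -0.09 and 0.10 for all genes.

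**Figure D3:**
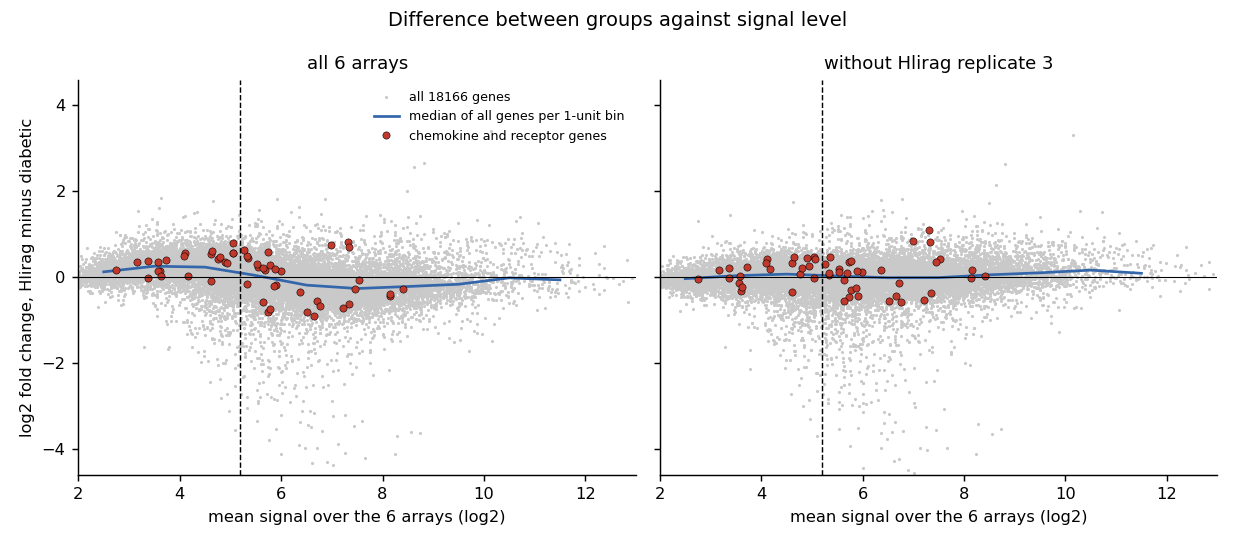
Log2 fold change (Hlirag minus diabetic) against the mean signal over the 6 arrays, with all arrays (left) and without Hlirag replicate 3 (right). Each small grey point is 1 of 18166 genes, the blue line is their median per bin of 1 log2 unit holding at least 20 genes, red points are the 54 genes and the dashed line is the background level; the slope of the median from dim to bright genes on the left is not seen on the right.

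The 18 receptors had a median log2 fold change of 0.31 (15 above 0) and the 34 ligands of 0.04 (18 above 0). Among genes above background the medians were 0.19 for 9 receptors and -0.21 for 21 ligands. These medians were 0.14 and 0.055 without Hlirag replicate 3, and 0.56 and 0.016 without diabetic replicates 1 and 2. A pattern of Hlirag replicates 2 and 3 both below Hlirag replicate 1 and below every diabetic array was found in 9 genes (Ackr3, Ccl2, Ccl3, Ccl7, Ccl21, Ccl24, Ccr1, Cx3cl1 and Cxcl13). This was 16.7% of the 54 genes, against 14.6% of all genes.

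Many chemokine genes lie in clusters left by gene duplication, and 36 of the 54 genes fell into 10 clusters in the GRCr8 annotation, with gaps of at most 500 kb. No cluster of more than 2 genes had log2 fold changes of a single sign. On chromosome 10, Ccl2, Ccl7, Ccl11, Ccl12 and Ccl1 ran from -0.62 to 0.81, and Ccl5, Ccl9, Ccl6, Ccl3 and Ccl4 from -0.80 to 0.71. Ccl24 (-0.80) and Ccl26 (0.56), side by side on chromosome 12, and Ccl21 (-0.90) and Ccl19 (0.56) on chromosome 5 had opposite signs. Cx3cl1 (-0.72) lies between Ccl17 (0.41) and Ccl22 (0.56) on chromosome 19. The 7 receptors of the cluster on chromosome 8 ran from -0.73 for Ccr1 to 0.61 for Cxcr6. Whether probes of close paralogs, such as Ccr1 and Ccr1l1, also pick up each other's RNA was not tested.

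The genes through which chemokines are induced, sensed and displayed were counted in lists that had been chosen with earlier results of these data known. Of 29 measured genes of chemokine receptor signalling 1 met the criterion: Ptk2b, a calcium-activated tyrosine kinase, was lower in Hlirag (-0.98, SE 0.36). The list's median was -0.25, and 0.04 without Hlirag replicate 3. Arrb2, an arrestin that takes up receptors, had -0.57 (SE 0.29), Stat3 had -0.61 (SE 0.31) and Elmo1, which activates Rac in migration, had -0.56 (SE 0.29). Of 29 cytokines and NF-κB genes 1 met the criterion, Nfkbiz, a nuclear partner of NF-κB, lower in Hlirag (-0.84, SE 0.33), and the median was 0.00 (-0.10 without diabetic replicates 1 and 2). Rela, an NF-κB subunit, had -0.60 (SE 0.27), and Ltb, lymphotoxin beta, had 0.52 (SE 0.22) at a fold change of 1.43, short of the criterion. Tnf, Il6, Il1b and Ifng, the usual inducers of chemokines, were below background on every array.

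Of 16 adhesion genes none met the criterion, with a median of -0.23, which was -0.12 without Hlirag replicate 3 and 0.00 without diabetic replicates 1 and 2. Icam1, which holds leukocytes to endothelium, had -0.34 (SE 0.29), Vcam1 had 0.23 (SE 0.63), Cd44 had -0.56 (SE 0.29) and Itga4 had -0.75 (SE 0.46). Of 19 genes that trim chemokines or build the heparan sulfate that binds them 1 met the criterion: Hs2st1, a heparan sulfate sulfotransferase, was lower in Hlirag (-0.77, SE 0.32). Dpp4, a protease that inactivates Cxcl12 and several other chemokines, had -0.67 (SE 0.31), Mmp12, a macrophage elastase, had 0.93 (SE 0.47) and Elane, neutrophil elastase, was below background (0.51, SE 0.24). The median of this list was -0.29, and 0.14 without Hlirag replicate 3. Counts of 0 or 1 per list compare with 3.78% of all genes.

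**Figure D4:**
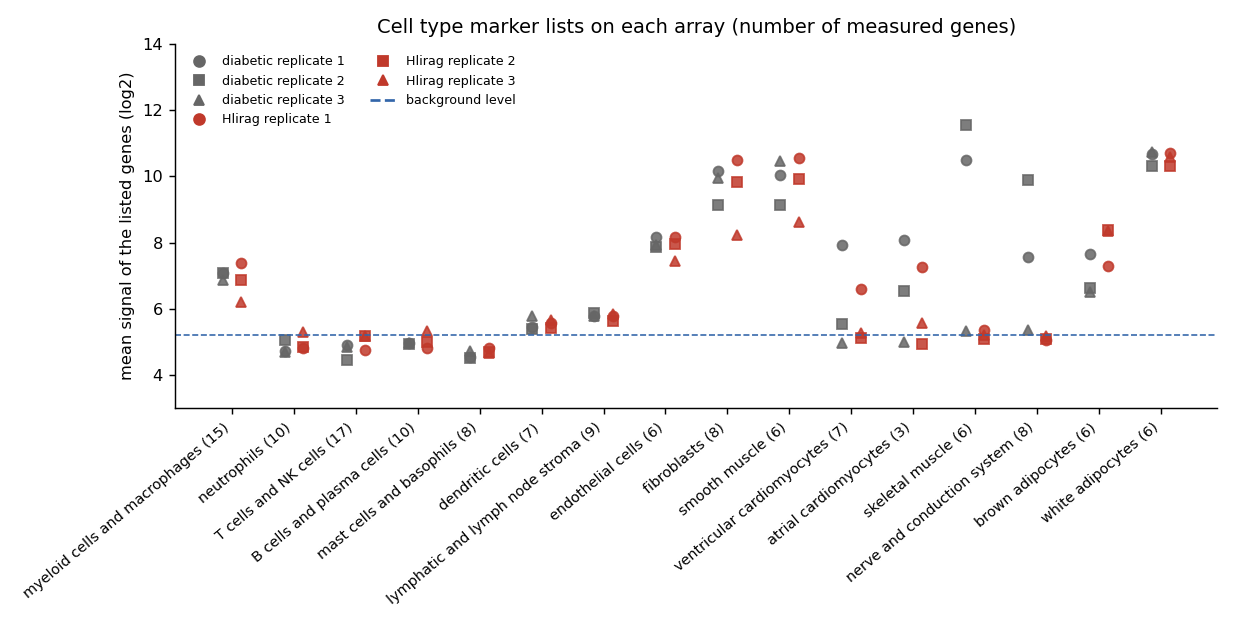
Mean signal (log2) of each cell type's marker genes on each of the 6 arrays, with the number of measured genes in brackets and the background level dashed. Skeletal muscle and nerve genes stood high on diabetic replicates 1 and 2 only, while neutrophil, T cell, B cell and mast cell means lay at or near the background level on all arrays.

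No marker of macrophages, neutrophils, mast cells, dendritic cells, lymphatic vessels, endothelium, fibroblasts, smooth muscle, cardiomyocytes or white adipocytes met the criterion. All 6 skeletal muscle markers measured, and 5 of 8 nerve markers, were lower in Hlirag at the criterion through diabetic replicates 1 and 2. Smooth muscle markers averaged 10.57, 9.92 and 8.63 on the Hlirag arrays and 10.04, 9.12 and 10.45 on the diabetic arrays. Endothelial markers, of the cells that make much of the Cx3cl1, averaged 8.17, 7.96 and 7.45 on the Hlirag arrays and 8.17, 7.87 and 7.94 on the diabetic arrays. Their order over the Hlirag arrays was the same as that of Cx3cl1, but also as that of the smooth muscle, fibroblast and macrophage markers. Hlirag replicate 3 was the lowest of its group in 68.5% of all genes above background. The part of endothelial cells in the value of Cx3cl1 was not tested.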

How the data were processed

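Of each group, Hlirag and diabetic, 3 RNA samples were hybridized to Affymetrix Rat Gene 2.0 ST arrays. The authors deposited log2 signals of 36685 probe sets, and the submitters' processing notes name Expression Console 1.4.1. The method of summarisation and normalization is not given in the sources used here. Gene symbols came from the platform annotation: 18511 probe sets carried 1 symbol, 575 several and 17599 none. Each of 18166 genes was read from its brightest probe set with 1 symbol, and the symbols of all 54 chemokine and receptor genes matched RefSeq (GRCr8).

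Groups came from the sample titles. The comparison of Hlirag with diabetic was fitted with limma 3.58.1 in R 4.3.3 (lmFit, eBayes, a term for group alone) across all genes, with Benjamini-Hochberg adjustment over all of them. The code was tested on simulated data. A log2 fold change is the Hlirag mean minus the diabetic mean. Genes met the criterion of the study at p under 0.05 before adjustment and a fold change over 1.5. Its methods use a one-way analysis of variance, called the methods' test here and run as an alternative. Signals of different genes were compared only to set the background level, to call genes bright or dim and to rank them by brightness. Probes differ in brightness, so these comparisons are rough.

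Described in full were genes at the criterion, genes whose groups did not overlap, the 12 brightest, the 6 with the largest range over the arrays among those above background, and the atypical receptors. Known ligands and receptors were set side by side. Members and lists were chosen with earlier results of these data known. Alternatives were quantile normalization, median centring, leaving out dim genes, an intensity trend, averaging the probe sets of a gene, values raised to background, a replicate block and leaving out each array. Leaving out diabetic replicates 1 and 2 together was added after seeing the data. Tables and figures were made with pandas 2.3.3, numpy 2.4.6 and matplotlib 3.10.9. Arrays give no read depth, and 3 arrays per group limit the precision.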

Additional observations from a re-analysis of the deposited data

How the results depend on the processing

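Of the 54 chemokine and receptor genes 2 met the criterion. The count was 0 by the methods' test, 1 with values raised to background and 1 to 12 when each array was left out in turn. After quantile normalization it was 5 (2 higher in Hlirag and 3 lower), or 9.26%, against 3.57% of all genes (648). The 12 (22.2%) came without Hlirag replicate 1, where 2018 of all genes (11.1%) met the criterion. Leaving out Hlirag replicate 2 or 3 or diabetic replicate 2 each gave 1. Median centring gave 3 (5.56%, against 2.81% of all genes). Without dim genes, with an intensity trend and with the mean of probe sets the count stayed at 2. Among all genes 687 met the criterion, and 236 did by the methods' test, 214 with values raised to background, 286 without diabetic replicates 1 and 2 and 226 to 2018 when each array was left out. Median centring moved the median of all genes to -0.14, and its calls were 128 higher and 383 lower in Hlirag, against 294 and 393 without it. The labels number the samples of both groups. The deviations of same-numbered arrays correlated at 0.32, 0.04 and 0.15, and those of differently numbered arrays at -0.32 to 0.16. These values do not settle whether the numbers pair the samples, and the main fit did not pair them. With the replicate block, 4 of the 54 genes (Ccl24, Ccl3, Ccr4 and Cx3cl1) and 1117 of all genes met the criterion. Of 341 values of 23 genes under the alternatives, 297 kept their direction and their side of the criterion, 12 lost the criterion, 17 gained it and 3 (Ccl26, Ccr1l1 and Cxcr1) came to 0.00 once raised to background. The other 12, of 6 genes, changed from a negative to a positive sign. All losses of the criterion were in the 2 genes at it, Ccl24 and Cx3cl1. Each of these lost it under 6 alternatives and kept it under 9. The remaining genes were not at the criterion to begin with. When each array was left out in turn, Ackr3 ran from -0.57 to 0.039, Ccr2 from -1.44 to 0.58, Cxcl12 from -0.70 to 0.18, Cxcl16 from -0.49 to 0.42 and Cxcl9 from -0.65 to 0.35, with a positive sign for all 5 genes without Hlirag replicate 3 (0.17 for Ccr2) and for Cxcl16 also without diabetic replicate 3 (0.080). Ccr2 was highest without diabetic replicate 2. Without diabetic replicates 1 and 2, which leaves 1 diabetic array assumed to vary like the Hlirag group, Ccl6 was at 0.057, Ccr2 at 1.88, Cxcl12 at 0.20 and Cxcl9 at 0.48. Cxcl16 was at 0.039 after quantile normalization. The causes were not tested.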
